A study of Caenorhabditis elegans with 2 samples.

Results

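MicroRNA genes were taken as all genes of biotype miRNA in the Ensembl annotation of the WBcel235 assembly of Caenorhabditis elegans, which gave 261 of 46890 genes on the 6 nuclear chromosomes. Chromatin immunoprecipitation with sequencing (ChIP-seq) was done with an anti-GFP antibody on the protein K12H6.12 fused at its C terminus to GFP and FLAG. The animals were whole young adults at 72 hours, of mixed sex, of strain OP214. Every animal carried unc-119(ed3) and the transgene wgIs214, and the promoter that drives the transgene is not named in the labels. There was 1 group with 2 biological replicates, numbered 2 and 3, and no untagged or input peak list was used here. Whether a given peak marks binding of K12H6.12 was therefore not tested, and no difference between conditions could be computed. Whole animals were used, so no tissue can be assigned to a peak.

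A microRNA is cut from a hairpin in a longer primary transcript and guides an Argonaute protein to messenger RNAs that match its seed, the bases near its 5′ end. MicroRNAs with the same seed form a family and can act on the same targets. Many C. elegans microRNA genes lie in introns of protein-coding genes or in clusters made as a single transcript, so the start of the transcript can lie well upstream of the annotated hairpin.

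For each microRNA gene a promoter window was drawn that reached 1000 bp upstream and 200 bp downstream from the annotated 5′ end. A gene had a summit if the highest point of a peak fell in that window in the list of reproducible peaks, which the authors thresholded by irreproducible discovery rate (IDR) from both replicates. The mature sequences shown first belong to the families on which the results turn, with the seed (bases 2 to 8) in capitals, as given by RefSeq for WBcel235. The mir-51 family is shown because all 6 of its genes had a summit.
mir-51: uACCCGUAgcuccuauccauguu
mir-52: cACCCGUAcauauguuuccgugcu
mir-53: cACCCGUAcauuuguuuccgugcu
mir-54: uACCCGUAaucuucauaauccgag
mir-55: uACCCGUAuaaguuucugcugag
mir-56: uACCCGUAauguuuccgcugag

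The mir-64 family, in which mir-229, mir-64, mir-65 and mir-66 form a cluster on chromosome III and mir-63 lies alone on chromosome X, is shown by 4 of its mature sequences because the 4 clustered genes had a summit and mir-63 had none.
mir-229: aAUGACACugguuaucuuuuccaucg
mir-64: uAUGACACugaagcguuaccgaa
mir-66: cAUGACACugauuagggauguga
mir-63: uAUGACACugaagcgaguuggaaa

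The let-7 family is shown because mir-241 had a summit in its window, while the summits nearest to let-7, mir-48 and mir-84 lay farther upstream.
mir-241: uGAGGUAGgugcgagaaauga
let-7: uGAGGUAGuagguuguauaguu
mir-48: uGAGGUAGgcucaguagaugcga
mir-84: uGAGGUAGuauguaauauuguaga

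These families shared a small number of summits. The 201 bp centred on 6 of them, read 5′ to 3′ along the strand of the microRNA in RefSeq WBcel235, are given below with CTCCGCCC, GAGAGA and TATAAA in capitals on either strand (GGGCGGAG, TCTCTC and TTTATA on the other). The summit is the middle base. The mir-51 window contains its own mature sequence as DNA.
mir-54 to mir-56, chrX:13145250-13145450, minus strand: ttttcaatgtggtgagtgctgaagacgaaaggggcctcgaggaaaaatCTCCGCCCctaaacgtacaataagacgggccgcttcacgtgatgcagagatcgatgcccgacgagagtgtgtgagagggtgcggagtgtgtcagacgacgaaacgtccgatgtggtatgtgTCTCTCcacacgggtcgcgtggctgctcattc
mir-52, chrIV:14033697-14033897, plus strand: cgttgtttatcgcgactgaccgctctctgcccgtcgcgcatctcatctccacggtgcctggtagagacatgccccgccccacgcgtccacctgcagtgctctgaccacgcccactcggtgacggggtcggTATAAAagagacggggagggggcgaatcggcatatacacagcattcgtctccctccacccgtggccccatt
mir-53, chrIV:11027670-11027870, minus strand: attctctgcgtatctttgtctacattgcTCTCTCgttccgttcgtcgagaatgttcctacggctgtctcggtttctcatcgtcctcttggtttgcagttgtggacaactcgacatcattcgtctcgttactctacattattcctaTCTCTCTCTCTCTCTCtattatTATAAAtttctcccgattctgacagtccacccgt
mir-51, chrIV:11026001-11026201, minus strand: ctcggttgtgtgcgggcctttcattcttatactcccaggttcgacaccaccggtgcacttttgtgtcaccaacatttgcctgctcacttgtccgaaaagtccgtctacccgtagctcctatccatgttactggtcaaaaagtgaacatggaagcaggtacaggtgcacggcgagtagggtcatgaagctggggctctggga
mir-229 and mir-64 to mir-66, chrIII:2172022-2172222, plus strand: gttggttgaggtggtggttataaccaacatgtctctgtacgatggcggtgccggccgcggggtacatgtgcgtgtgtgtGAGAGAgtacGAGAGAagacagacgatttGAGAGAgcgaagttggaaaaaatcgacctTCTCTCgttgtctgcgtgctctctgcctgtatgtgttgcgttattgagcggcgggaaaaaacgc
mir-241, chrV:14366630-14366830, minus strand: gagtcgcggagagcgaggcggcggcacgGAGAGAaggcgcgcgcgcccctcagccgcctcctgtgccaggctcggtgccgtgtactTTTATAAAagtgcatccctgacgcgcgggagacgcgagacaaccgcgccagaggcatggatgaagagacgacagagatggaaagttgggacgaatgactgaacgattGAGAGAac

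A summit was present at 25 of 261 microRNA genes, or 9.58% (exact 95% interval 6.295 to 13.81, counting error over genes only). The background share was 5.53% of all annotated genes, 7.1% of protein-coding genes and 7.69% of genes other than those of 21U-RNAs, the piRNAs of the worm. The interval for microRNA genes includes the last pair of shares and lies above the first. The 25 genes shared 22 distinct summits, since the cluster of mir-229, mir-64, mir-65 and mir-66 had a single summit, as did mir-54, mir-55 and mir-56, while mir-52 had 3. The interval over genes counts genes that share a summit separately. MicroRNA genes on the same strand were therefore joined into clusters where their 5′ ends were within 1000 bp. Of 227 clusters, 20 had a summit, or 8.81% (exact 95% interval 5.465 to 13.28). The interval for clusters includes the 5.53% of all annotated genes.

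The summits at microRNA genes were of ordinary height for this list. Their peak signal, a score from the authors' peak caller with no stated unit, had a median of 160.1 and ran between 103 and 340.0, against a median of 147 and a range of 97.9 to 1112 over all 2268 entries of the IDR list. Of the 22 summits, 13 were among the 1134 entries of highest signal. A peak of the relaxed lists lay over the summit in both replicates at 21 of 22, beside 2218 of 2268 entries of the IDR list (97.8%). With each replicate cut to its 2268 strongest peaks, the count was 17 of 22 (77.3%), beside 1495 of 2268 entries (65.9%). The exception in the relaxed lists was the summit of mir-2, over which replicate 2 had no peak. Replicate 2 did have a peak of signal 125 with its summit in the same promoter window.

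**Figure D1:**
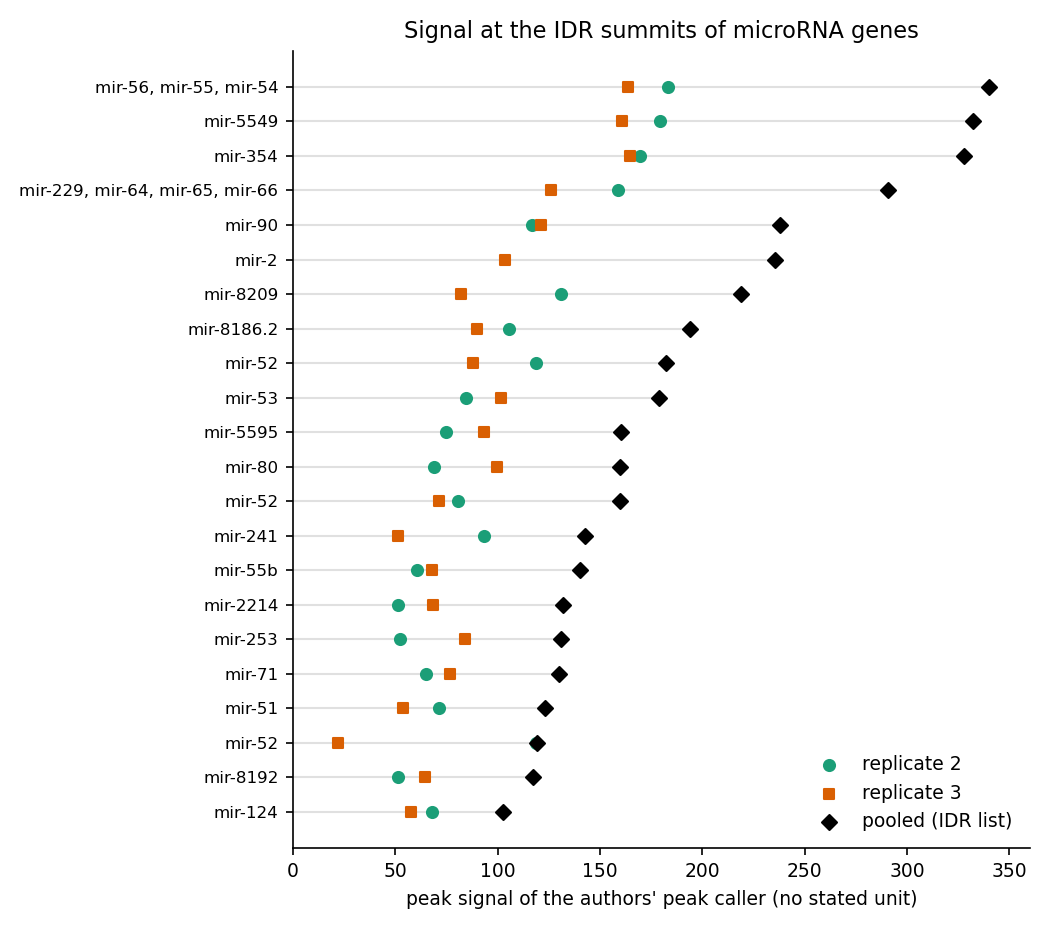
Peak signal on the horizontal axis at each of the 22 distinct summits in promoter windows of microRNA genes, for replicate 2 (circles), replicate 3 (squares) and the pooled peak of the IDR list (diamonds), in order of pooled signal. The summit of mir-54, mir-55 and mir-56 is highest at 340.0 and that of mir-124 lowest at 103. The mir-2 line has no circle because the replicate 2 peak nearby did not cover the summit position. The gene mir-52 stands on 3 lines for its 3 summits.

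The mir-51 family, whose joint loss is lethal to embryos, had 4 loci, and each had a summit. The strongest lay 256 bp upstream of mir-54, 426 bp upstream of mir-55 and 563 bp upstream of mir-56, on chromosome X. Its peak signal was 340.0 in the pooled list, 183 in replicate 2 and 164 in replicate 3. These 3 hairpins are antisense to an intron of F09A5.3, and the summit was 3749 bp from the annotated 5′ end of that gene. It was the highest summit of any microRNA gene and ranked 151 in the IDR list. A further microRNA gene, mir-55b, is annotated on the opposite strand over mir-55 and had a summit of its own 368 bp upstream, with signals of 140.1 pooled, 60.7 in replicate 2 and 67.7 in replicate 3.

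On chromosome IV, mir-52 had 3 summits. The highest, 211 bp upstream, had a signal of 182 in the pooled list, 119 in replicate 2 and 87.7 in replicate 3. A summit 763 bp upstream had 159.6 pooled, 80.7 in replicate 2 and 71.2 in replicate 3. The last of the 3 lay inside the mir-52 hairpin and had 119 pooled, 119 in replicate 2 and 22.2 in replicate 3. The replicate 2 value at this summit belongs to the same peak that covers the highest summit, so it is not a separate measurement. Far from mir-52 on the same chromosome, mir-53 had a summit 79 bp upstream with signals of 179 pooled, 84.3 in replicate 2 and 102 in replicate 3. Its neighbour mir-51 had a summit 11 bp downstream of its 5′ end, inside the hairpin, with 123 pooled, 71.5 in replicate 2 and 53.9 in replicate 3. The nearest coding 5′ end to both was that of hrg-5, a haem-responsive gene, at 1658 bp from the mir-53 summit and 3327 bp from the mir-51 summit.

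The mir-64 family cluster, mir-229 with mir-64, mir-65 and mir-66, lies in an intron of gcn-1, a gene for a regulator of translation, on the same strand. Its summit had a signal of 291 in the pooled list, 159 in replicate 2 and 126 in replicate 3. It lay 330 bp upstream of mir-229, the first of the hairpins, and 726, 880 and 986 bp upstream of mir-64, mir-65 and mir-66. The 5′ end of gcn-1 was 20177 bp away and its own promoter window held no summit.

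The let-7 family controls the timing of larval development. In the promoter window of mir-241 a summit lay 447 bp upstream, with signals of 143 pooled, 93.5 in replicate 2 and 51.3 in replicate 3. The same summit was the nearest upstream one to mir-48, at 2221 bp. The window of let-7 held no summit in any IDR or pooled entry, but the next IDR summit upstream of the gene lay 1842 bp from its annotated 5′ end, with 246 pooled, 119 in replicate 2 and 118 in replicate 3. The let-7 annotation spans 1732 bp, far more than a hairpin, and the mature let-7 sequence begins 2908 bp from that summit, which also lies in the promoter window of the coding gene C05G5.2. Upstream of mir-84 a summit lay at 2301 bp, with 183 pooled, 70.5 in replicate 2 and 99.9 in replicate 3. The remaining member by seed, mir-795, had no summit within 3000 bp.

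**Figure D2:**
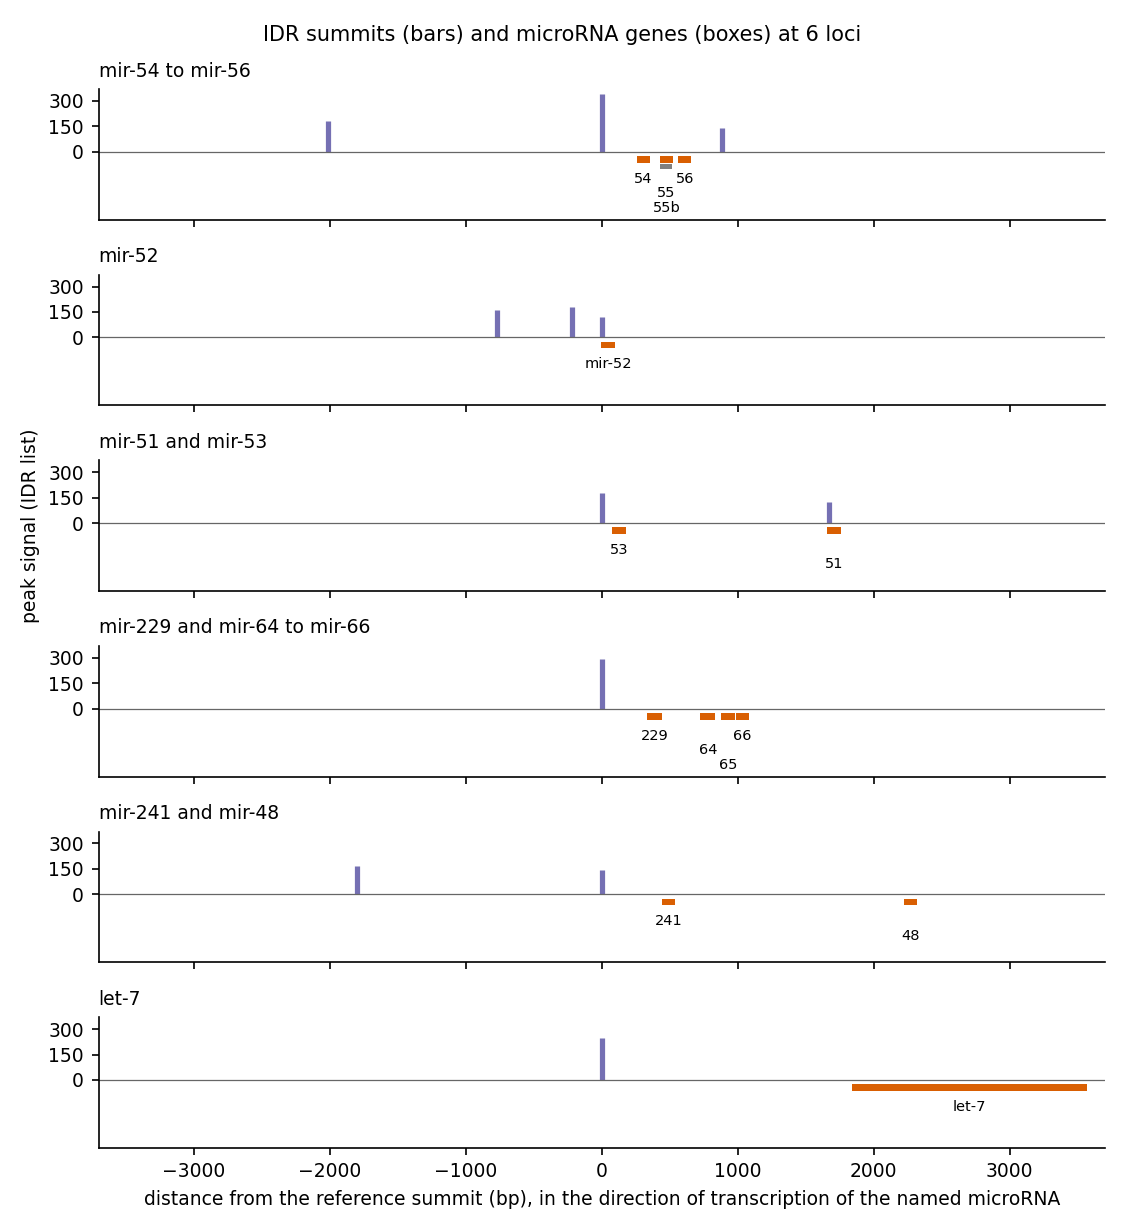
Summits of the IDR list (vertical bars, height in peak signal) and microRNA genes (boxes, grey where on the other strand) at 6 loci, against the distance in bp from 1 chosen summit in the direction of transcription of the named microRNA. The mir-229 cluster has 1 summit upstream of its first hairpin, mir-52 has 3 and let-7 has its summit 1842 bp upstream of the annotated gene.

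Over all families, 374 different seeds were found among the mature sequences of the 260 microRNA genes that matched RefSeq. Seeds carried by 3 or more genes numbered 16, over 67 genes, of which 14 had a summit. These 14 came from 6 families. Beside the mir-51 family with 6 of 6 and the mir-64 family with 4 of 5, the other 4 families had a single gene with a summit each. The mir-35 family, 8 genes that act in the embryo, had 0 of 8 in the window at IDR stringency. For mir-35, mir-36, mir-37 and mir-38 the nearest IDR summit lay between 2610 and 2935 bp upstream, with 268 pooled, 86.5 in replicate 2 and 148 in replicate 3, and in the promoter window of the coding gene Y62F5A.12. The genes of a cluster share a promoter region, so family counts repeat the same summit.

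**Figure D3:**
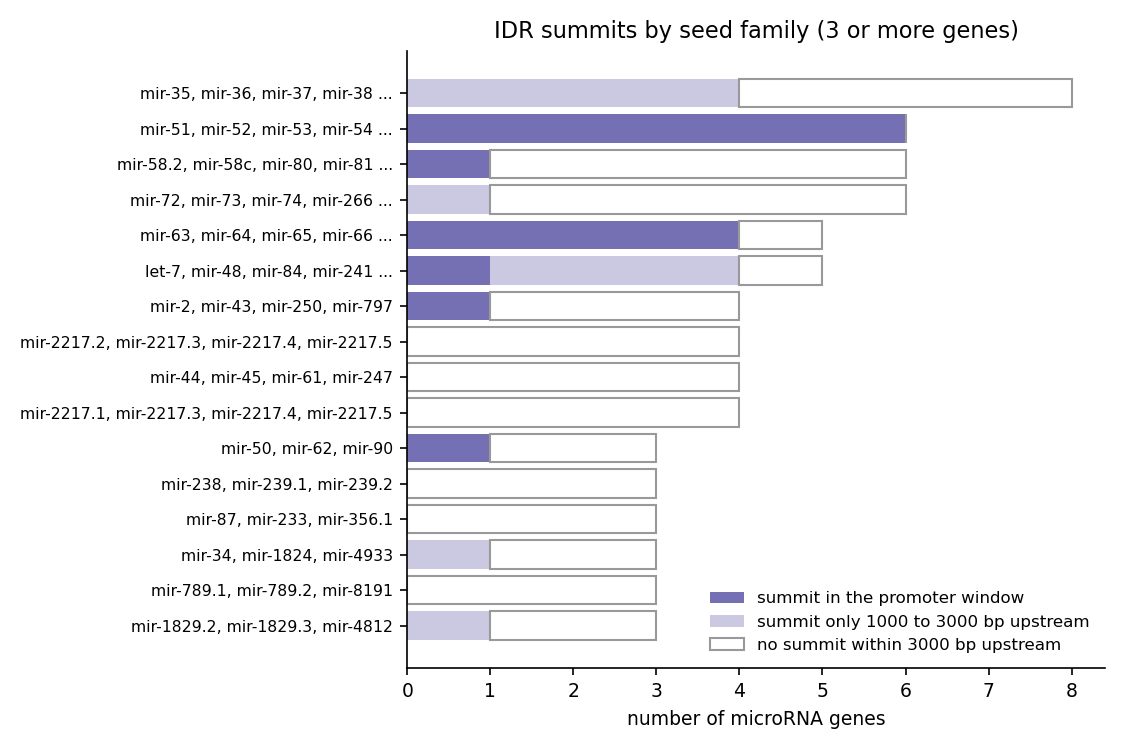
Number of microRNA genes in each of the 16 seed families of 3 or more genes, divided into those with an IDR summit in the promoter window (dark), those with one only 1000 to 3000 bp upstream (light) and those with none within 3000 bp (open); mir-2217.3, mir-2217.4 and mir-2217.5 each carry 2 of these seeds and appear under both. The mir-51 family is dark for 6 of 6 genes and the mir-35 family for 0 of 8.

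Outside these families, 2 genes with strong summits had them in promoter windows of coding genes. The summit of mir-5549, 3 bp upstream of the hairpin, had 332 pooled, 179 in replicate 2 and 161 in replicate 3. It lay in the promoter windows of eef-1A.1, a translation elongation factor, and rfc-4, a subunit of replication factor C. Of these, rfc-4 had the nearer 5′ end, at 165 bp. For mir-354 the summit lay 846 bp upstream, with 328 pooled, 169.8 in replicate 2 and 165 in replicate 3. It falls in the promoter window of its host rps-20, a ribosomal protein gene, and of ekl-4, whose 5′ end was nearer, at 163 bp. These summits cannot be told apart from those of the coding genes. The 2 other summits in a coding promoter window were those of mir-8186.2, with gmeb-1, and mir-253, with its host F44E7.5. At mir-8186.2 the signal was 194 pooled, 106 in replicate 2 and 90.0 in replicate 3, with the summit 390 bp upstream. At mir-253 it was 131 pooled, 52.4 in replicate 2 and 83.9 in replicate 3, with the summit 260 bp upstream and 46 bp from the 5′ end of F44E7.5.

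Most summits of microRNA genes lay outside the promoter windows of coding genes. Only these 4 of 22 distinct summits fell in the promoter window of a protein-coding gene, or 18.2%, against 1128 of 2268 entries of the IDR list, or 49.7%. The nearest coding 5′ end was 5046.5 bp away at the median and between 46 and 20177 bp. Only the outermost annotated 5′ end of each coding gene was used, so starts of other transcripts inside a gene were not considered. Relative to coding genes, summits lay outside them in 11 cases, in introns in 10 and in an exon in 1. At 5 of the 22 an annotated non-coding RNA gene of no stated class lay over the summit. For the 25 genes the strongest summit was upstream of the hairpin in 21, and the distance was 350 bp at the median, with the farthest upstream at 986 bp. The window itself sets much of this, since it reaches 1000 bp upstream and 200 bp downstream. At mir-51, mir-2214, mir-8192 and mir-8209 it lay downstream of the annotated 5′ end, at 11, 28, 15 and 162 bp. All 31-base words in the 201 bp around each of the 22 summits occur once in the genome, so none of them lies in sequence repeated at that length.

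By position relative to coding genes, a summit was found at 13 of 75 microRNA genes inside a coding gene on the same strand (17.3%, exact 95% interval 9.565 to 27.8), at 4 of 32 inside one on the other strand (12.5%, 3.51 to 29.0) and at 8 of 154 outside coding genes (5.195%, 2.27 to 9.98). The 13 on the same strand rest on 10 summits, since the 4 genes of the mir-229 cluster share 1, and the 4 on the other strand rest on 2, since mir-54, mir-55 and mir-56 share 1. No test was made between these classes, and the first and last intervals overlap. Among hosts of genes with a summit, the host's own promoter window held one at rps-20, F44E7.5 and nurf-1, and none at gcn-1, ppfr-1, flcn-1, B0361.11, K01F9.2, trpa-1 or F09A5.3.

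The remaining genes with a summit lay in or near other coding genes. In K01F9.2, mir-90 had a summit 350 bp upstream, with 238 pooled, 117 in replicate 2 and 121 in replicate 3. A neighbouring gene outside K01F9.2, mir-80, whose seed resembles that of the fly microRNA bantam, had one 260 bp upstream with 160.0 pooled, 68.8 in replicate 2 and 99.8 in replicate 3. Antisense to nurf-1, a gene for a chromatin remodelling subunit, mir-5595 had 160.2 pooled, 74.9 in replicate 2 and 93.3 in replicate 3 at 216 bp upstream. The weakest summit of the 22 belonged to mir-124, a microRNA of sensory neurons in an intron of the channel gene trpa-1. It lay 448 bp upstream with 103 pooled, 67.8 in replicate 2 and 57.5 in replicate 3. Between these levels, mir-2214 in B0361.11 had 132 pooled, 51.4 in replicate 2 and 68.6 in replicate 3. In flcn-1, the folliculin gene, mir-8192 had 117 pooled, 51.5 in replicate 2 and 64.6 in replicate 3. The intergenic gene mir-8209 had 219 pooled, 131 in replicate 2 and 82.1 in replicate 3.

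The phosphatase subunit gene ppfr-1 on chromosome I hosts both mir-71, which acts in lifespan, and mir-2. At mir-71 the summit was 354 bp upstream with 129.9 pooled, 65.0 in replicate 2 and 76.9 in replicate 3. At mir-2 it was 420 bp upstream with 235 pooled and 104 in replicate 3, with no replicate 2 peak over it. Neither IDR summit lay in the promoter window of ppfr-1, whose annotated 5′ end was 9608 bp from the mir-71 summit.

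Shares were also counted by name and by chromosome. Genes named mir-1 to mir-99, largely the first to be cloned, had a summit in 14 of 58 cases (24.1%), at 10 distinct strongest summits. These 14 include the 6 genes of the mir-51 family, mir-64, mir-65 and mir-66 of the mir-229 cluster, and mir-55b, placed here by its number. The share was 6.58% of 76 genes from mir-100 to mir-999 and 4.88% of 123 genes from mir-1000 upwards. On X a summit was present at 4 of 74 microRNA genes (5.405%, exact 95% interval 1.492 to 13.27), against 7.03% of coding genes there. All 4 lie at the same locus in F09A5.3, where mir-54, mir-55 and mir-56 share a summit and mir-55b has its own. On the autosomes a summit was present at 21 of 187 microRNA genes (11.2%, 7.087 to 16.65), against 7.11% of coding genes, and the intervals for X and autosomes overlap. Chromosome III had 8 of 27 microRNA genes, of which the mir-229 cluster gives 4, against 9.92% of coding genes. These classes were not compared by a test, and gene age, expression and cluster membership were not separated.

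**Figure D4:**
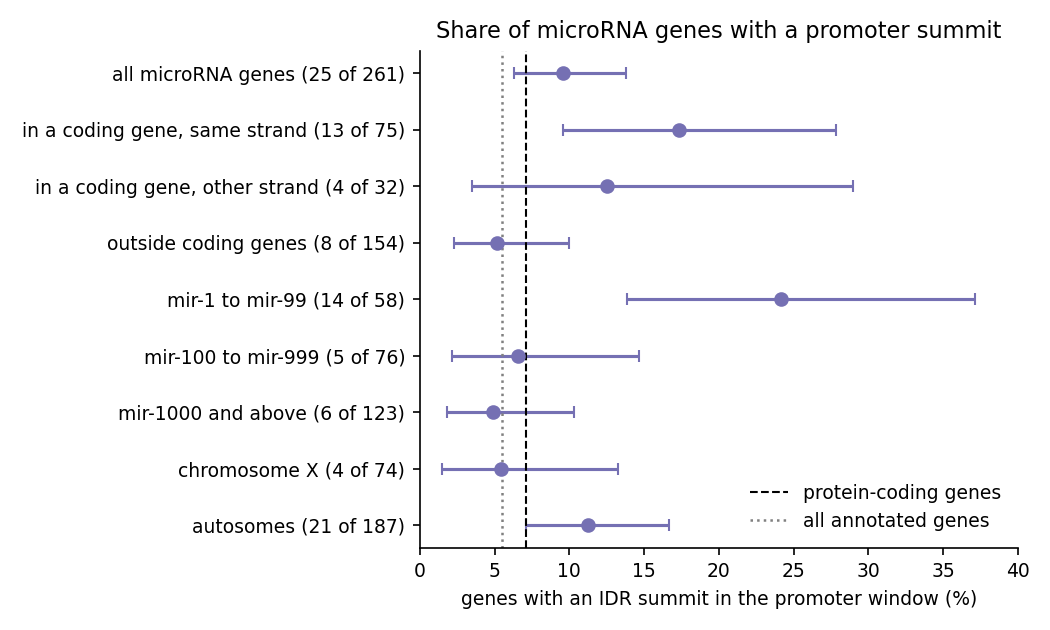
Share of microRNA genes with an IDR summit in the promoter window (points, percent) with exact 95% binomial intervals, for all genes, by position relative to coding genes, by number in the name, and for X and autosomes; the dashed and dotted lines mark protein-coding genes at 7.1% and all annotated genes at 5.53%. Genes mir-1 to mir-99 stand at 24.1% and genes outside coding genes at 5.195%.

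In the relaxed lists, which the authors deposited as input for the IDR procedure and which include background, more microRNA genes had a summit. The pooled list had one at 113 of 261 (43.3%), against 28.5% of all genes. Replicate 2 had one at 105 (40.2%), against 27.3%, and replicate 3 at 118 (45.2%), against 29.1%. With peaks restricted to a −log10 q-value above 2, the counts were 34 in the pooled list (13.0%, against 8.07%), 33 in replicate 2 (12.6%, against 7.35%) and 30 in replicate 3 (11.5%, against 7.51%). All of these backgrounds include the 21U-RNA genes, without which the IDR share rose from 5.53% to 7.69%. For the relaxed lists, shares of coding genes or of genes other than 21U-RNA genes were not counted. Both replicates had some summit in the window at 77 genes, or 29.5%. The same share over all genes was not counted, so this value has no background to be read against. Of the 236 microRNA genes without an IDR summit, 88 had a pooled one, with a median signal of 44.5 and a highest of 97.3, and the remaining 148 had none in that list.

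That highest value was at mir-243, 687 bp upstream, with 46.5 in replicate 2 and 52.4 in replicate 3, at rank 2294 of the pooled list. Next came mir-4936 with 93.0 pooled, 55.0 in replicate 2 and 26.3 in replicate 3. Then followed mir-5551 at 86.0 pooled, mir-87 at 83.9, mir-2218.1 at 81.1, mir-239.1 and mir-239.2 at 80.0 on a shared summit, mir-62 at 74.9 and mir-790 at 72.1. In the same group, lin-4, the first microRNA described, which represses lin-14 in larvae, had 81.1 pooled, 57.6 in replicate 2 and 33.5 in replicate 3, at 419 bp upstream. Among well-studied microRNAs, mir-1 of muscle had 58.6 pooled in its window, mir-58.1 had 56.5, mir-34 had 52.6, mir-35 had 52.3 and mir-48 had 47.6. No pooled summit lay in the windows of let-7, mir-84, lsy-6, mir-228 or mir-237. For lsy-6, which sets left and right identities of a taste neuron pair, for mir-228 and for mir-237 no IDR summit lay within 3000 bp upstream either.

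Extending the window upstream added microRNA genes. Within 3000 bp upstream, 49 of 261 genes had an IDR summit, or 18.8%, against 8.82% of all genes and 11.5% of protein-coding genes. At an upstream limit of 250 bp the shares were 3.07% of microRNA genes and 3.45% of coding genes, and at 500 bp they were 7.66% of microRNA genes and 5.47% of coding genes. With only the nearest summit of each gene counted, the 24 added genes had 20 distinct summits, including the mir-241 summit for mir-48. The strongest of them lay 1575 bp upstream of mir-2215, with 365 pooled, 189 in replicate 2 and 190.5 in replicate 3. Upstream of mir-34, a microRNA of the stress response, a summit at 1883 bp had 303 pooled, 146 in replicate 2 and 178 in replicate 3. The summit 2499 bp upstream of mir-1 had 197 pooled, 95.9 in replicate 2 and 94.5 in replicate 3, and lies in the promoter window of T09B4.3. Other strong ones were 2569 bp upstream of mir-230, at 220.3 pooled, and 2809 bp upstream of mir-60, at 263 pooled. The mir-60 one lies in the promoter window of the coding gene set-4. The nearest summits of let-7, mir-1, mir-35 to mir-38, mir-60, mir-353, mir-800, mir-1829.2, mir-2216, mir-4813 and mir-4920 stand in coding promoter windows. Those of the other added genes do not. Closeness to a microRNA therefore does not assign a summit to it.

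**Figure D5:**
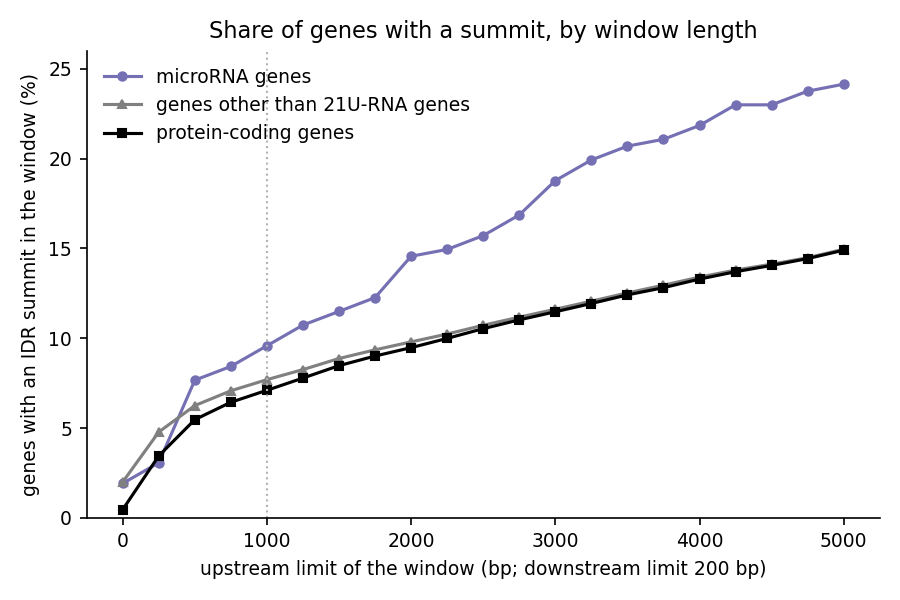
Share of genes with an IDR summit (percent, vertical axis) as the upstream limit of the window is moved between 0 and 5000 bp with the downstream limit kept at 200 bp, for microRNA genes (circles), genes other than 21U-RNA genes (triangles) and protein-coding genes (squares). At 1000 bp (dotted line) the shares are 9.58%, 7.69% and 7.1%, and at 3000 bp microRNA genes stand at 18.8%.

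The letters CTCCGCCC, a motif known from the upstream sequence of worm microRNA genes, were counted on both strands. They occurred in the promoter windows of 9 of 25 microRNA genes with a summit (36.0%), 30 of 236 without one (12.7%) and 1039 of 19973 coding genes (5.20%). Within 100 bp of the summit they occurred at 3 of 22 summits (13.6%), against 2.60% of all IDR entries. Those at mir-54 and mir-8192 lie 308 and 54 bp upstream of the hairpin. GAGAGA was in the windows of 23 of 25 microRNA genes with a summit (92.0%), 133 of 236 without one (56.4%) and 50.9% of coding genes. It lay within 100 bp of 12 of 22 summits (54.55%), against 45.4% of all IDR entries. TATAAA was in 15 of 25 windows with a summit (60.0%), 181 of 236 without one (76.7%) and 80.0% of coding genes, and at 5 of 22 summits (22.7%) against 10.8% of all IDR entries. At the highest mir-52 summit it begins 181 bp upstream of the hairpin, at mir-53 12 bp and at mir-80 315 bp. The windows of clustered genes overlap and repeat each other's matches. Guanine and cytosine made up 52.5% of the 201 bp at the median over summits of microRNA genes, against 46.3% over all IDR entries, and whether this bears on the motif counts was not tested. A match is a run of letters and not a bound site.

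Among 24 coding genes for proteins of microRNA production and action found in the annotation, 7 had an IDR summit, beside 7.1% of coding genes. At nhl-2, a cofactor of the microRNA silencing complex, the signal was 806 pooled, 432 in replicate 2 and 375 in replicate 3, with the summit 842 bp upstream and also in the promoter window of tag-340. At ain-1, the scaffold protein of that complex, it was 409 pooled, 284 in replicate 2 and 133 in replicate 3. For vig-1 it was 383 pooled, 217 in replicate 2 and 179 in replicate 3. The RNA helicase gene cgh-1 had 216 pooled, 125 in replicate 2 and 98.6 in replicate 3. The gene for LIN-28, which blocks maturation of let-7, had 202 pooled, 109 in replicate 2 and 114 in replicate 3. Lower values were seen at hrpk-1, 191 pooled, and at xpo-1, 177 pooled with no replicate 3 peak over the summit, which also lies in the promoter window of uvs-1. No IDR summit was in the windows of drsh-1, pash-1, dcr-1, alg-1 or alg-2, which encode the hairpin-cutting enzymes, the Drosha partner and the microRNA Argonautes.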

How the data were processed

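Per the file headers the 4 deposited lists of peaks use build ce11 (WBcel235): an IDR-thresholded list of 2268 entries, a pooled list of 30000, replicate 2 with 27073 and replicate 3 with 30000. Per the file headers, relaxed peaks were called against 1 control alignment. Which aligner, peak caller and filters the authors used, and at what IDR value, is not given in the sources used here. Signal, as deposited, is a score with no stated unit, used for order and level inside 1 list; values of both replicates are shown side by side and not compared. The deposited −log10 q-value was used above 2 as an alternative, and the summit is the deposited start plus its offset. Depth is unknown, since peak lists hold no read totals, and intervals cover counting error only.

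Genes and biotypes came from Ensembl release 115, names and sequences from RefSeq WBcel235. A replicate's signal is that of the strongest peak over the summit. No test was made: 1 group, 2 replicates. The window code was tried on simulated data. The mature sequence of mir-65 is not reported here. Named genes were every microRNA gene with an IDR summit, the 10 with the highest pooled summit among the rest, 15 well-studied microRNAs, and host or nearest coding genes; others were chosen after seeing values. The members, lists and motifs were chosen with earlier results of these data known, and the 3000 bp window after seeing the data. Other windows, overlap by 1 bp, the 1134 strongest entries, and each replicate alone were alternatives. Python 3.11.15, pandas 2.3.3, NumPy 2.4.6 and SciPy 1.17.1 were used.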

Additional observations from a re-analysis of the deposited data

How the results depend on the processing

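Of 34 alternative values, 26 kept within the range set for an unchanged result. For counts that range was a factor of 1.5, so a fall from 25 to 17 genes was within it. With the window cut to 500 bp upstream and 100 bp downstream, 19 microRNA genes (7.28%) had 19 distinct summits. The genes lost were mir-56 of the mir-51 family, mir-64, mir-65 and mir-66 of the mir-64 family, mir-354 and mir-8209. With 1000 bp upstream and 0 bp downstream, 21 genes (8.05%) had 17. With the window widened to 2000 bp upstream and 500 bp downstream, 40 microRNA genes (15.3%) had 38 distinct summits. With 3000 bp upstream, chosen after seeing the data, 49 genes (18.8%) had 48, with every summit in the window counted. Among the 1134 strongest entries, 17 of the 25 genes remained, at 13 distinct summits. For the strongest 2268 peaks of either replicate alone, the count was between 24 and 26 genes, between 22 and 23 summits, and between 9.195% and 9.96%. The median position of the summit was between -363.5 and -317 bp from the 5′ end. Of the 25 genes, 24 were found again with replicate 3 alone, which added mir-243 and mir-87, and 21 with replicate 2 alone, which added lin-4, mir-239.1 and mir-239.2. The cause was not tested. No paired analysis was possible because there was 1 group. The annotated hairpin is not the transcript start, so any fixed window misses more distant promoters and takes in those of neighbours. The unknown depth limits what a missing peak means.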

Other observations

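The gene ppfr-1, the host of mir-71 and mir-2, held 6 IDR summits, of which 2 lie in the promoter windows of these microRNA genes. The other 4 lay upstream of mir-71, beyond its window. At 1492 and 1691 bp upstream the pooled signals were 433 and 258, under the same replicate peaks, with 344 in replicate 2 and 121 in replicate 3. At 2968 bp upstream the signal was 916 pooled and 544 in replicate 2, with no replicate 3 peak over the summit. At 3176 bp it was 746 pooled, under the same replicate 2 peak, and 374 in replicate 3. These last 2 summits rank 4 and 8 of 2268 in the IDR list, and neither is in a promoter window counted for a microRNA gene.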
